A study of Mus musculus with 6 samples.

Results

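Genes of the cell division cycle and of DNA replication were compared between Müllerian ducts of control and Lats1 and Lats2 mutant mouse embryos. The set held 53 genes, taken by their symbol in the platform's probe table and read by phase, by a rule on names and roles; earlier results of these data were known when it was set. Of these, 49 had a row on the array, out of 19505 different genes named there. They were 13 of 14 genes of G1, 16 of 17 of S phase, and 20 of 22 of G2 and mitosis. Ccnd1, Mcm7, Ccnb1 and Foxm1 were not listed and are not analysed here.

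The Müllerian duct is the embryonic tube that gives rise to the oviducts, uterus and upper vagina. Total RNA was taken from ducts of 6 embryos at E17.5, with 1 Affymetrix array for each. The 3 control embryos had the genotype Lats1f/f,Lats2f/f, that is, floxed alleles of both Lats kinase genes and no Cre. The 3 mutant embryos were Lats1f/f,Lats2f/f,Amhr2cre/+, with Cre recombinase in 1 copy of the Amhr2 locus, and no embryo with Cre and without floxed alleles is among the groups. Amhr2, the receptor of anti-Müllerian hormone, is expressed in the duct's mesenchyme, and recombination in each cell type was not measured. Samples within a genotype are labelled as biological replicates. All values are log2 signals, given as mean ± SD with n = 3 for each group.

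Cells leave G1 when D cyclins with CDK4 or CDK6, and then E cyclins with CDK2, phosphorylate the retinoblastoma proteins and release E2F factors. E2F factors switch on the genes that license origins, make nucleotides and copy DNA. A later wave of genes, expressed in G2 and mitosis, condenses and segregates the chromosomes. LATS1 and LATS2 restrain the coactivators YAP and TAZ, which are known as drivers of growth, and several cell cycle genes are known YAP or TAZ targets in other tissues.

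All 6 arrays had medians between 6.87 and 6.95. Background probes had medians between 5.35 and 5.88, and the lowest signal of any of the 49 genes on any array was 6.42, so all were above background throughout. Over all 22206 transcript clusters, 723 passed a limma adjusted p of 0.05, and with 1 array left out this number lay between 360 and 697, the lowest without mutant 1 (360), control 1 (384) and control 2 (454). Lats1 was at 12.51, 12.13 and 12.20 in controls and at 11.12, 11.77 and 11.60 in mutants (limma adjusted p = 0.0958), and Lats2 at 11.49, 11.58 and 11.17 in controls and at 11.63, 11.95 and 11.32 in mutants (0.684). Where their probes lie relative to the deleted exons is not given in the labels, and the deletion cannot be judged from them. Amhr2, which carries Cre in 1 copy in the mutants, was between 10.51 and 10.88 in controls and between 6.54 and 7.52 in mutants. Its log2 difference, -3.73 (limma adjusted p = 0.000112), was the lowest of all transcript clusters. How much of this fall comes from the Cre insertion, and how much from the cells, was not tested. Markers of the duct were present, with a mean signal of 10.80 to 11.71 over arrays for 9 mesenchymal markers, 1 of them (Hoxa13) below background throughout, and of 8.72 to 9.60 for 10 epithelial markers. Control 3 stood apart through 7 urothelial markers, whose mean signal was 9.80 there, at most 5.29 on the other controls and at most 5.48 on mutants, with Krt5 and Krt20 below background on every array. RNA was measured from whole ducts, so fewer cells of a type and less RNA per cell cannot be told apart.

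The 250 bases before the start are shown for 4 genes that are named in the results below. They are Cdk6, the only gene of the set that passed the test, Mcm5 and Cdc6, which had the largest differences among the genes of origin licensing, and Mki67, which had the smallest p of the mitotic genes. The sequences are from RefSeq on build GRCm38.p6, read 5′ to 3′ along each gene, at chr5:3343643-3343892, plus strand for Cdk6, chr8:75109259-75109508, plus strand for Mcm5, chr11:98907901-98908150, plus strand for Cdc6, and chr7:135716380-135716629, minus strand for Mki67. Capitals mark matches, on either strand, to the letters of E2F sites (TTTCCCGC, TTTCGCGC, TTTGCCGC or TTTGGCGC), of the cell cycle homology region CHR (TTTGAA or TTCGAA) and of the CCAAT box.
Cdk6: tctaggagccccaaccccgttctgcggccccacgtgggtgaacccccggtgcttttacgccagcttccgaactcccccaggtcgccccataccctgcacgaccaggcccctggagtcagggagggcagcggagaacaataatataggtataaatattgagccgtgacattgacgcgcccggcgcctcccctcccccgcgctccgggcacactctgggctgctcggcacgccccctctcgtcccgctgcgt
Mcm5: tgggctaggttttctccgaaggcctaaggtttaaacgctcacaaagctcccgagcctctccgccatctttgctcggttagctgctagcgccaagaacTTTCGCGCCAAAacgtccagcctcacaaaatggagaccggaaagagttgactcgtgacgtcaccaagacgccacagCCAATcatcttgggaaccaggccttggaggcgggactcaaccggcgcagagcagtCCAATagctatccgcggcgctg
Cdc6: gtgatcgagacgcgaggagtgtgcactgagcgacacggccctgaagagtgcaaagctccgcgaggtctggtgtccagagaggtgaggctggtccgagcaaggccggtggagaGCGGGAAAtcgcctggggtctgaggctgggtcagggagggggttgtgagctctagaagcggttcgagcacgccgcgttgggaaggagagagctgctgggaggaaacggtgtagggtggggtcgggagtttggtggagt
Mki67: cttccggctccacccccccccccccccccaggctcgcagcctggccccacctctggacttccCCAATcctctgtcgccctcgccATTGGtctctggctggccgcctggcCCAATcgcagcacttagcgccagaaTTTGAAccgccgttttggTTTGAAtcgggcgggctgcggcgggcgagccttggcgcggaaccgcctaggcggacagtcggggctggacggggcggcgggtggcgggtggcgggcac
The Cdk6 stretch held none of these letters. The Mcm5 stretch held 2 overlapping E2F matches and 2 CCAAT boxes, and that of Cdc6 held 1 E2F match. The Mki67 stretch held 2 CHR matches downstream of 3 CCAAT boxes.

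E2F letters lay more often in promoters of G1 and S phase genes, and CHR with CCAAT in those of G2 and mitosis. Windows of 300 bases, from 250 before to 50 after the start, were found for 38 of the 49 genes and for 27025 genes in all, with the first listed window used for each gene. An E2F match lay in 6 of 14 S phase windows and 4 of 9 G1 windows, against 1 of 15 windows of G2 and mitosis and 2.32% of all windows. CHR and CCAAT stood together in 12 of 15 windows of G2 and mitosis, 2 of 14 of S phase, 0 of 9 of G1 and 7.70% of all. CCAAT, with or without CHR, lay in 13 of 15, 11 of 14 and 2 of 9 of them, and in 37.9% of all. A match is a description of letters, and factor binding was not measured.

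**Figure D1:**
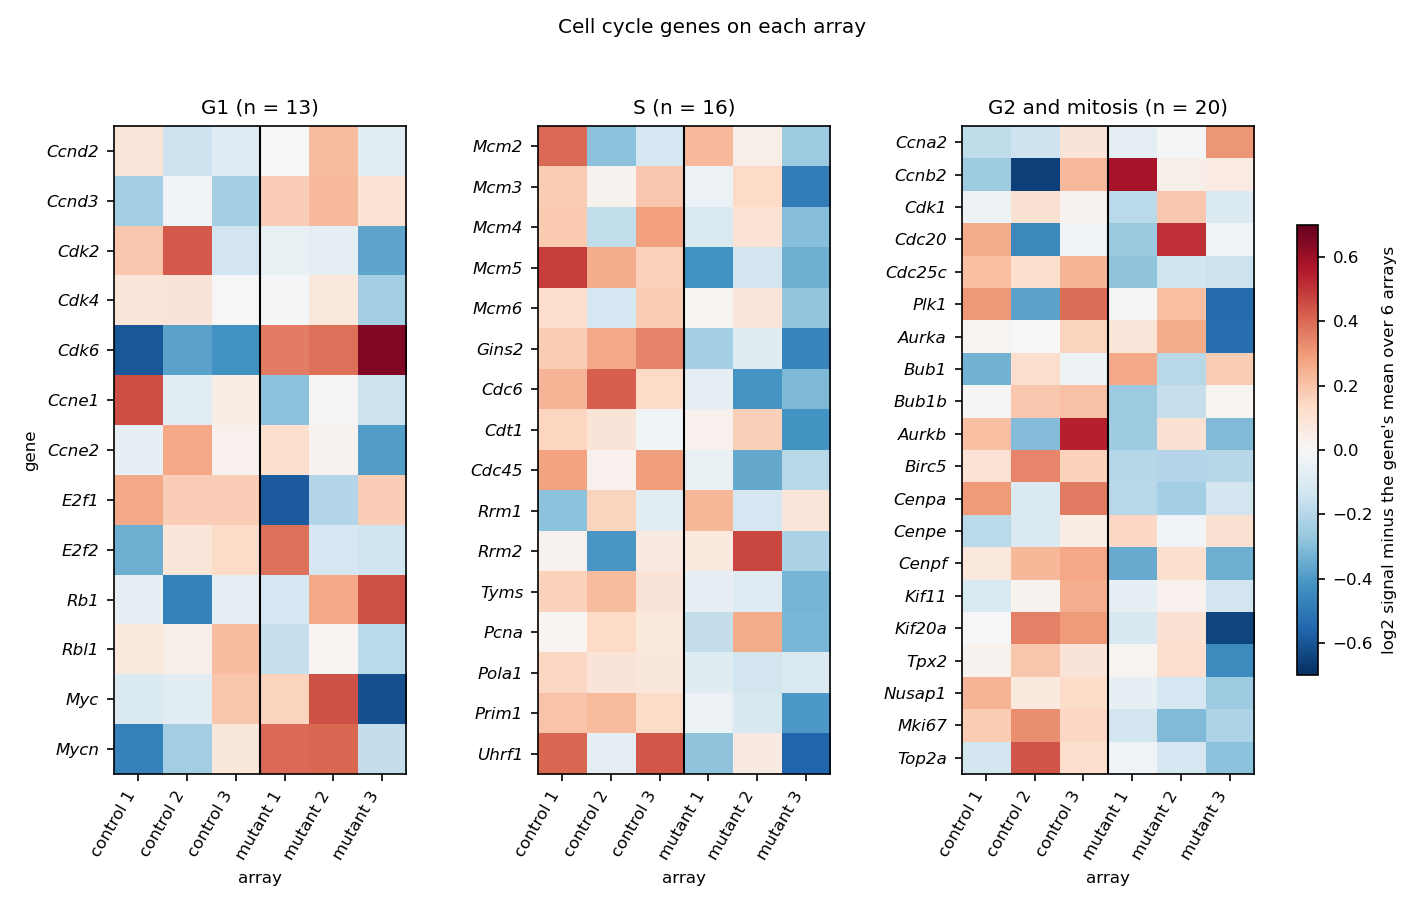
Heat map of the 49 genes by phase. Each row is a gene and each column an array, and colour gives the log2 signal minus the gene's mean over the 6 arrays (red higher, blue lower), with a line between control and mutant arrays. Cdk6 is the row with the clearest break between the groups, and the mutant 3 column is the bluest in S phase, where it holds the lowest signal of 9 of 16 genes.

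Mutant and control ducts were compared to ask whether expression of the cycle's machinery differs between the genotypes. A single gene passed limma's test across all transcript clusters, Cdk6, which rose, so that 1 of 49 was called where 3.26% of all transcript clusters were, 2.59% of them higher. No gene of the set was called lower, where 0.666% of all transcript clusters were. At an unadjusted limma p under 0.05 there were 9 genes, 1 higher and 8 lower, beside 15.3%, 8.49% and 6.81% of all transcript clusters. The 8 lower genes were Mcm5, Gins2, Cdc6, Cdc45, Uhrf1, Mki67, Birc5 and Cdc25c, and they became 5 without control 1, control 3, mutant 1 or mutant 3. The 1 higher gene became 3 without control 3 and 2 without mutant 1 or mutant 3. Mutant means were below control means for 35 of the 49 genes (71.4%), against 51.5% of all transcript clusters. The median log2 difference, mutant minus control, was -0.21 for the set and -0.01 for all transcript clusters.

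The groups of 15 genes (30.6%) did not overlap, against 21.1% of all transcript clusters, with 13 lower and 2 higher in mutants. Among all transcript clusters 10.2% did not overlap and were lower, and 10.9% did not overlap and were higher. For the set these shares were 26.5% and 4.08%. With fewer arrays overlap is rarer by construction, and the lower count was 22 without mutant 2 and 20 without control 2, and the higher count 6 without control 3, 4 without mutant 2 or mutant 3, and 3 without control 1 or mutant 1. The precision allowed a bound on most genes, since the 95% interval of the difference lay within 1 log2 unit of 0 for 46 of 49. The smallest difference that passed the test anywhere on the array was 0.69, and Cdk6 alone of the set reached that size.

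**Figure D2:**
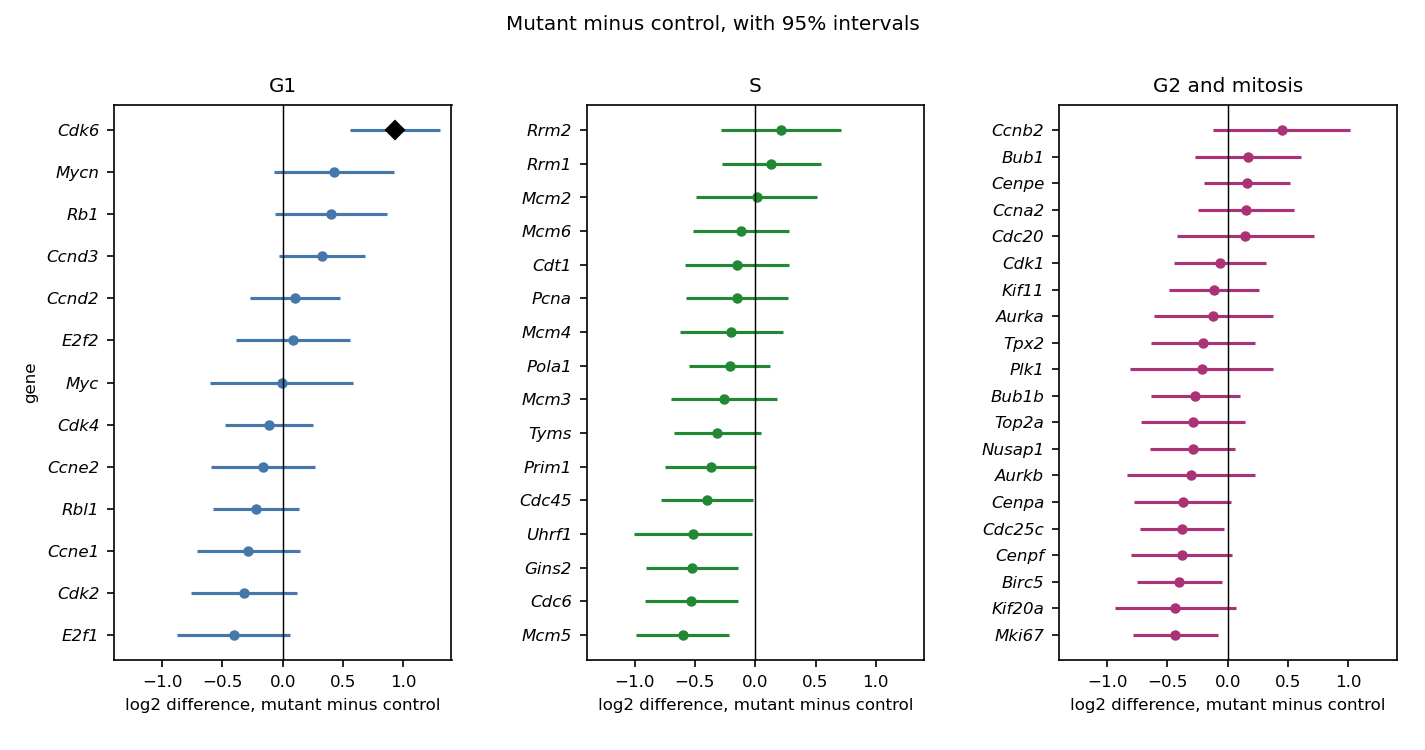
Log2 difference between mutant and control means (points) with 95% limma intervals (lines) for each gene, in 1 panel for each phase. The black diamond marks Cdk6, at 0.93, the only gene called, and the S phase points run from -0.60 to 0.21.

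In G1, the kinase Cdk6 rose and its close relative Cdk4 gave no call. CDK6 partners D cyclins to phosphorylate retinoblastoma proteins. Cdk6 (transcript cluster TC0500000008.mm.2) was at 12.09, 12.31 and 12.26 on the control arrays and at 13.04, 13.07 and 13.33 on the mutant arrays. All mutant arrays lay above all controls, with a gap of 0.74 between the groups. The means were 12.22 ± 0.11 and 13.15 ± 0.16 (SD, n = 3 each), a 1.90-fold rise with a log2 difference of 0.93 ± 0.17 (SE), a 95% interval from 0.55 to 1.30 and a limma adjusted p of 0.0166. The call was lost without control 1 (adjusted p = 0.0811), mutant 1 (0.0555) or mutant 3 (0.0592), with log2 differences of 0.86, 0.98 and 0.84.

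Cdk4 and Cdk2 showed nothing of that size. Cdk4, the other partner of D cyclins, had a log2 difference of -0.12 with an interval from -0.48 to 0.25. Cdk2, which acts with E cyclins at the start of S phase, had -0.32 with an interval from -0.76 to 0.12. Read within each array, the signal of Cdk6 less that of Cdk4 was -4.32, -4.10 and -4.06 in controls and -3.27, -3.33 and -2.75 in mutants. All mutant values lay above all control values, which restates the Cdk6 call, and 3 against 3 arrays allow no exact p below 0.1.

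The D cyclins that were measured, Ccnd2 and Ccnd3, bind these kinases. Ccnd3 was at 15.96, 16.17 and 15.96 in controls and at 16.37, 16.42 and 16.29 in mutants. Its groups did not overlap, with mutants higher by 0.33 ± 0.16 (SE), but it did not pass the test (limma adjusted p = 0.372). Ccnd2 had overlapping groups and a difference of 0.10, with an interval from -0.28 to 0.47. The E cyclins Ccne1 and Ccne2, which activate CDK2, had differences of -0.28 and -0.17, and neither passed.

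Among E2F factors and pocket proteins, none of 4 passed, at an adjusted or an unadjusted p of 0.05. E2f1, an activator of S phase genes, was at 7.53, 7.43 and 7.43 in controls and at 6.68, 7.05 and 7.43 in mutants. Its control arrays lay close together, and mutant 3 reached their level while mutant 1 was the lowest. The retinoblastoma gene Rb1, a brake on E2F, was at 8.88, 8.47 and 8.88 in controls and at 8.83, 9.22 and 9.39 in mutants, with overlap at mutant 1. Rbl1, which encodes the related p107, was at 10.43, 10.39 and 10.56 in controls and at 10.19, 10.37 and 10.16 in mutants, apart by only 0.02. The log2 differences were -0.41 for E2f1, 0.40 for Rb1 and -0.22 for Rbl1, with limma adjusted p from 0.406 to 0.581, and E2f2 had 0.09. The difference was -0.22 for E2f1 without mutant 1 and 0.26 for Rb1 without control 2.

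Neither MYC gene passed. Myc, a growth factor-responsive transcription factor, had a difference of -0.01 with the widest mutant range of the set, 1.06, since mutant 3 was the lowest array and mutant 2 the highest. Mycn, its relative of embryonic tissues, had a difference of 0.42 with an interval from -0.07 to 0.92. The 13 G1 genes had a median difference of -0.01, with 7 of 13 mutant means below control, and that median lay at 0.16 without mutant 3, at 0.08 without control 3, at -0.18 without mutant 2 and between -0.09 and -0.05 without each of the others.

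In S phase none of 16 genes passed the adjusted threshold, where 3.26% of all transcript clusters did. Mutant means were below control for 13 of 16, the median log2 difference was -0.23, and 5 had an unadjusted limma p under 0.05, all lower, where 6.81% of all transcript clusters did. Of the 16, 7 (43.8%) had groups that did not overlap, all lower in mutants, where 10.2% of all transcript clusters did so. The median was -0.16 without mutant 3 and -0.32 without mutant 2.

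Genes of origin licensing and of the replicative helicase held the largest differences. Mcm5 encodes a subunit of the MCM helicase. It was at 11.99, 11.77 and 11.67 in controls and at 11.08, 11.38 and 11.17 in mutants. Every mutant array lay below every control, and the difference was -0.60 ± 0.17 (SE), with a 95% interval from -0.99 to -0.21 and a limma adjusted p of 0.116. Its adjusted p was 0.0496 when transcript clusters under the median signal were left out.

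Gins2, a subunit of the GINS complex that joins the helicase, was at 9.49, 9.57 and 9.66 in controls and at 9.07, 9.23 and 8.84 in mutants. Cdc6, which loads the helicase at origins, was at 8.36, 8.54 and 8.26 in controls and at 8.05, 7.71 and 7.81 in mutants. Cdc45, the third component of the active helicase, was at 9.68, 9.42 and 9.68 in controls and at 9.34, 9.03 and 9.20 in mutants. All 3 genes had groups that did not overlap, by 0.26, 0.21 and 0.08. Their differences were -0.52, -0.53 and -0.40, with limma adjusted p of 0.167, 0.167 and 0.300.

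The other helicase subunits differed less. Mcm2, Mcm3, Mcm4 and Mcm6 had overlapping groups and differences of 0.01, -0.26, -0.20 and -0.12, with intervals between -0.70 and 0.51. Cdt1, the licensing partner of CDC6, had -0.15. Of the 9 genes of licensing and helicase, 8 had a lower mutant mean, with a median of -0.26, where 51.5% of all transcript clusters had a lower mean. In 4 of the 9 the groups did not overlap, all lower in mutants, where 10.2% of all transcript clusters did so.

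Nucleotide supply genes did not go one way. Tyms, thymidylate synthase, was at 12.80, 12.85 and 12.73 in controls and at 12.58, 12.55 and 12.31 in mutants. The groups were apart by 0.15, with a difference of -0.31 and a limma adjusted p of 0.407. Rrm1 and Rrm2, the subunits of ribonucleotide reductase, had overlapping groups and higher mutant means, by 0.13 and 0.21.

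Polymerase alpha and primase start each new strand. Pola1, the catalytic subunit, was at 9.12, 9.07 and 9.06 in controls and at 8.89, 8.85 and 8.87 in mutants. These were the tightest groups in S phase, with SDs of 0.03 and 0.02, and the difference was -0.21 (limma adjusted p = 0.575). Prim1, the primase, was at 12.26, 12.28 and 12.20 in controls and at 12.02, 11.95 and 11.66 in mutants, a difference of -0.37 (limma adjusted p = 0.335) with mutants all below. Uhrf1, which helps copy DNA methylation, had -0.51 with overlapping groups, and the sliding clamp Pcna had -0.15.

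**Figure D3:**
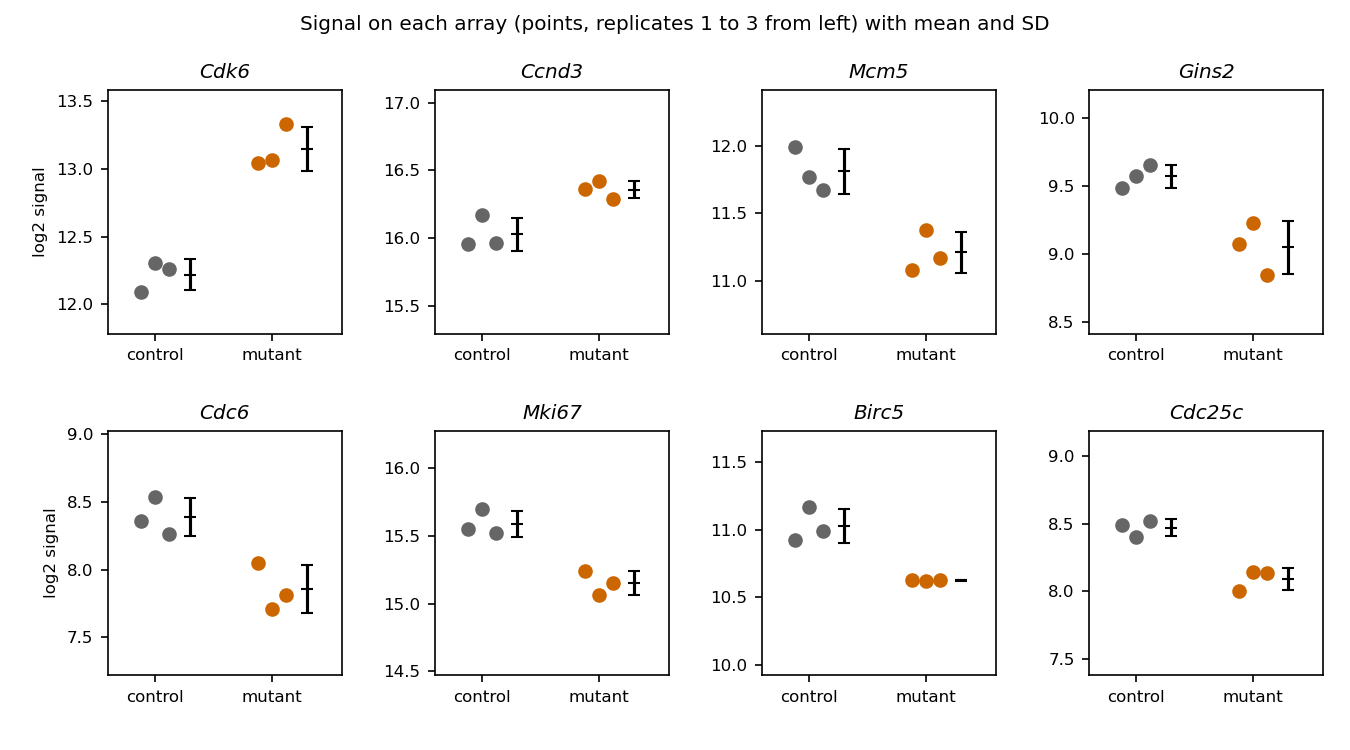
Log2 signal on each array for 8 genes, control in grey and mutant in orange, with the mean and SD of the 3 arrays beside each group. Every panel spans 1.8 log2 units, and none of the 8 has overlapping groups. Cdk6 has the widest gap, 0.74, and the mutant arrays of Birc5 span 0.01.

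In G2 and mitosis none of 20 genes passed the adjusted threshold, where 3.26% of all transcript clusters did. Mutant means were below control for 15 of 20, the median log2 difference was -0.24, and 3 had an unadjusted limma p under 0.05, all lower, where 6.81% of all transcript clusters did. In 5 of 20 the groups did not overlap, all lower in mutants, where 10.2% of all transcript clusters did so. The median was -0.14 without mutant 3, -0.16 without control 3 and -0.30 without mutant 2.

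The chromosome genes Mki67 and Top2a are standard markers of cycling cells. Mki67, the Ki-67 antigen that coats mitotic chromosomes, was at 15.55, 15.70 and 15.52 in controls and at 15.24, 15.07 and 15.15 in mutants. The groups were apart by 0.28, a 1.35-fold lower mutant mean with a difference of -0.44 ± 0.16 (SE), an interval from -0.79 to -0.08 and a limma adjusted p of 0.217. Top2a, the topoisomerase that untangles chromosomes, had -0.29 with overlapping groups.

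Birc5, or survivin, belongs to the chromosomal passenger complex. It was at 10.93, 11.17 and 10.99 in controls and at 10.63, 10.62 and 10.63 in mutants. The mutant arrays lay within 0.01 of each other and 0.30 below the lowest control, and the difference was -0.40 (limma adjusted p = 0.259). Aurkb, the kinase of that complex, had -0.30, and the checkpoint kinases Bub1 and Bub1b had 0.17 and -0.27, all with overlapping groups.

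Among regulators of mitotic entry and exit, Cdc25c activates CDK1. It was at 8.49, 8.40 and 8.52 in controls and at 8.002, 8.15 and 8.13 in mutants, apart by 0.25, with a difference of -0.38 and a limma adjusted p of 0.281. CDK1 and its cyclins drive entry into mitosis. Cdk1 had a difference of -0.06 with an interval from -0.44 to 0.32, while Ccna2 and Ccnb2 had higher mutant means, by 0.15 and 0.45, and the interval for Ccnb2 ran from -0.12 to 1.02. Cdc20, which activates the anaphase-promoting complex, had 0.15, and the mitotic kinases Plk1 and Aurka had -0.21 and -0.12. All 6 of these genes had overlapping groups.

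The histone variant of centromeres, Cenpa, was at 12.57, 12.17 and 12.63 in controls and at 12.08, 12.03 and 12.14 in mutants. The groups were apart by only 0.03, since control 2 lay near the mutants, and the difference was -0.37 (limma adjusted p = 0.367). The kinetochore proteins Cenpf and Cenpe had -0.38 and 0.16, and both overlapped. Nusap1, a spindle microtubule protein, was at 12.51, 12.34 and 12.40 in controls and at 12.22, 12.15 and 12.02 in mutants, a difference of -0.29 (limma adjusted p = 0.434) with mutants all below. The motors Kif11 and Kif20a and the spindle factor Tpx2 had -0.11, -0.43 and -0.21 with overlapping groups.

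The arrays were not alike in the set. Mutant 3 held the lowest signal of the 6 arrays for 22 of 49 genes and the lowest of the mutants for 28 of 49. Control 3 held the highest signal for 14 and the lowest for 0. The mean deviation of the S phase genes from their own 6-array means was 0.18, 0.05 and 0.14 on control arrays and -0.06, -0.01 and -0.31 on mutant arrays. For G2 and mitosis it was 0.04, 0.02 and 0.19 on controls and -0.07, 0.01 and -0.18 on mutants, and for G1 it was -0.05, -0.03 and -0.01 on controls and 0.03, 0.13 and -0.07 on mutants. The groups did not overlap in S phase and overlapped in G1. In G2 and mitosis they barely missed overlap, with control 2 at 0.0194 and mutant 2 at 0.0082. Over all 49 genes they overlapped, with control 2 at 0.0185 and mutant 2 at 0.0356. Without mutant 3, 31 of 49 genes had a lower mutant mean and the median difference was -0.08, and without control 3 these were 35 of 49 and -0.17. Within groups the set was tighter than the array as a whole, with a median SD of 0.15 on control and 0.19 on mutant arrays against 0.21 and 0.22. The set was also brighter, with a mean signal of 11.28 to 11.59 over arrays against array medians of 6.87 to 6.95. The part of signal level in the spread and in the shares that did not overlap was not tested.

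**Figure D4:**
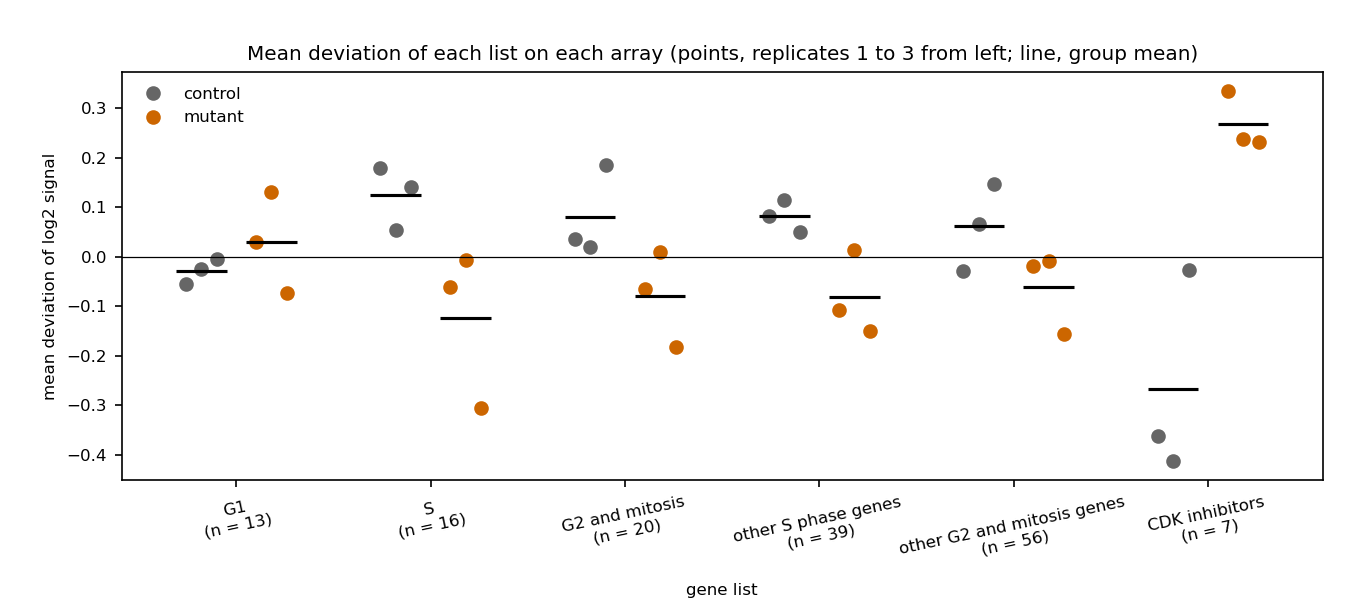
Mean deviation of each gene list on each array, the log2 signal minus the gene's 6-array mean averaged over the list, for the 3 phases and 3 further lists. Control arrays are grey, mutant arrays orange, and a line gives the group mean. Mutant 3 is the lowest point of the 3 phases, at -0.31 in S phase, and the CDK inhibitors, a list of 7 with Cdkn1a, Cdkn2b and Cdkn2a the highest differences and a median difference of 0.05, run from 0.23 to 0.34 on mutant arrays.

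The wider pathway, in lists of genes not in the set, gave no call at an adjusted p of 0.05 apart from CDK inhibitors. At that threshold 3.26% of all transcript clusters were called. Of 39 other S phase genes, none passed, 6 had an unadjusted limma p under 0.05, all lower, where 6.81% of all transcript clusters did, and 30 had a lower mutant mean, with a median of -0.16. Tk1, the thymidine kinase of the salvage route, was at 7.98, 7.67 and 7.79 in controls and at 7.29, 7.30 and 7.07 in mutants, and had the smallest p of that list (difference -0.59, limma adjusted p = 0.113). Its adjusted p was 0.0468 when transcript clusters under the median signal were left out. Mcm10 and Rpa1, which act at the fork, had -0.43 and -0.51.

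Of 56 other genes of G2 and mitosis, none passed, and 42 had a lower mutant mean, with a median of -0.09. Their mean deviation overlapped between the groups, with control 1 at -0.03 and mutant 2 at -0.01, while that of the 39 other S phase genes did not. An unadjusted limma p under 0.05 was found for 5, all lower, a share near the 6.81% of all transcript clusters. The kinetochore genes Cenpm and Cenpk and the spindle motor Kifc1 had the smallest p, with differences of -0.71, -0.54 and -0.50 and limma adjusted p of 0.135, 0.167 and 0.215. Of 18 other G1 genes none passed and 1, the E2F partner Tfdp2 at -0.48, had an unadjusted limma p under 0.05. None of 6 genes of the DREAM complex and B-MYB passed at either threshold, and their median was 0.10.

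Inhibitors of cyclin-dependent kinases rose in 2 of 7 cases and fell in none, where 2.59% of all transcript clusters were called higher and 0.666% lower. Cdkn1a, or p21, which binds cyclin-CDK complexes, was at 10.20, 10.08 and 10.76 in controls and at 12.75, 12.66 and 11.65 in mutants. It rose by 2.00 ± 0.31 (SE) on the log2 scale (limma adjusted p = 0.00796), and mutant 3 was the lowest of the mutants. Leaving out each array in turn gave adjusted p from 0.0033 to 0.0426. Cdkn2b, or p15, an inhibitor of CDK4 and CDK6, was at 5.13, 5.73 and 5.40 in controls and at 6.30, 6.79 and 6.63 in mutants. It rose by 1.15 ± 0.21 (SE; limma adjusted p = 0.0178), with 2 control arrays below background, so the size is of little precision, and the call was lost without control 1 (adjusted p = 0.0784), mutant 2 (0.0720) or mutant 3 (0.0655). Cdkn2a lay below background on all 6 arrays. Its groups did not overlap, its limma adjusted p was 0.0504, and it passed with arrays shifted to a common median, another prior, array weights, the replicate block (adjusted p from 0.0255 to 0.0451), or without mutant 2 (0.0179). Cdkn1b, Cdkn1c, Cdkn2c and Cdkn2d had differences of -0.40, -0.22, 0.05 and -0.04 and did not pass.

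Some markers of other cell types, and some immediate early and stress genes, differed between the groups. Over all transcript clusters, 2.59% were called higher and 0.666% lower. Of 9 measured macrophage markers 6 rose, among them the complement genes C1qa, C1qb and C1qc, and the mean signal of the list ran from 9.37 to 9.49 on control and from 10.47 to 10.75 on mutant arrays, with none below background throughout. Of 11 immediate early and stress genes, 5 rose (Fos, Egr1, Ier3, Hspa1a and Hspa1b), while others, such as Jun and Ier2, did not pass. The mean of the list ran from 8.08 to 8.60 on control and from 9.45 to 9.59 on mutant arrays, with 1 below background on every array. Such genes can respond to tissue handling, which the labels do not describe, and whether handling or genotype moved them was not tested. Of 9 mesenchymal markers 1 fell, Amhr2, and the mean of the list ran from 11.45 to 11.71 on control and from 10.80 to 11.29 on mutant arrays. Without Amhr2 the mean of the other 8 overlapped, from 11.53 to 11.81 on control and from 11.33 to 11.76 on mutant arrays. Single markers among these 8 went both ways without passing. Hoxa11 was lower on all mutant arrays (log2 difference -1.09, limma adjusted p = 0.0557) and Wnt4 was higher on all (1.00, limma adjusted p = 0.053). Hoxa10 and Osr2 had -0.75 and -0.685 with overlapping groups (limma adjusted p = 0.218 and 0.224). Of the 9 mesenchymal markers, with Amhr2, 6 had a lower and 3 a higher mutant mean. Of 8 smooth muscle markers 1 rose, Tagln, while 5 had a lower mutant mean and the median difference was -0.15. Acta2 was higher on all mutant arrays (log2 difference 2.00, limma adjusted p = 0.191) without passing. Actg2 and Myh11 had -2.16 and -1.21 with overlapping groups. The mean of the list ran from 8.15 to 11.25 on control, highest on control 3, and from 9.70 to 10.14 on mutant arrays, with Synm below background on all. Kdr of 7 endothelial, Fst of 8 ovary and germ cell, and Lhx1 of 10 epithelial markers also rose, and none of these 3 lists held a lower call. The log2 differences were 1.10, 1.94 and 1.20, with limma adjusted p of 0.00624, 0.00714 and 0.0358, and Lhx1 lay below background on all 6 arrays. Mutant means were lower for 5 of the 7 endothelial, 2 of the 8 ovary and germ cell, and 5 of the 10 epithelial markers. The medians of these lists were -0.23, 0.20 and -0.03. Of the ovary and germ cell markers, 4 lay below background on every array. The part of all these markers and genes in the cell cycle values was not tested.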

How the data were processed

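The authors deposited 1 table of log2 signals, a column for each of 6 arrays. It was made with Transcriptome Analysis Console 4.0, per the submitters' processing notes. The sources used here do not say how probes were summarised and normalized. The values were used as deposited. Control probes were left out, and 22206 transcript clusters were tested, 19572 of them with a gene symbol from the platform's probe table. No member had more than 1 row. Groups came from the labels.

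A linear model with genotype alone was fitted to all of them in limma 3.58.1 (lmFit, eBayes; R 4.3.3). The two-sided p-values took Benjamini-Hochberg adjustment across the 22206 transcript clusters, with a threshold of 0.05. The fit was tested on simulated data. The members and lists were chosen with earlier results of these data known. Array values are given for members that passed, whose groups did not overlap, or that were among the 4 smallest p of a phase. In the further lists of cell cycle genes they are given for those that passed, while up to 3 of the smallest p are named. Markers are given without array values, and some of those that passed are named. Tk1, Lats1 and Lats2 have array values outside this rule. The number of arrays limits the precision. Alternatives were 2 normalizations, 2 filters on dim rows, another prior, array weights, a replicate block, the mean of a gene's rows, other thresholds and each array left out.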

Additional observations from a re-analysis of the deposited data

How the results depend on the processing

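Across the alternatives, the 17 members with array values kept the sign of their difference in all 238 refits. Of these refits, 3 lost the Cdk6 call and 1 added Mcm5, and the other 234 stayed on the same side of the threshold. Leaving out each array in turn gave 360 to 697 called transcript clusters, 0 to 1 called members, and 1 to 2 called CDK inhibitors, which numbered 3 with a common median, another prior, array weights or the replicate block. Members that did not overlap then numbered 16 to 26, of them 13 to 22 lower and 2 to 6 higher. The medians ranged from -0.18 to 0.16 for G1, from -0.32 to -0.16 for S phase and from -0.30 to -0.14 for G2 and mitosis. Fewer arrays make it easier not to overlap by construction. An adjusted p of 0.01 left 299 transcript clusters and 0 members, and an unadjusted p of 0.05 gave 9 members. Without transcript clusters under the median signal, 2 members, 1 CDK inhibitor and 1 other S phase gene were called, with fewer rows tested. Quantile normalization moved the G1 median to -0.10, and the cause was not tested. The replicate number did not pair the arrays: same-numbered arrays had deviations that correlated at 0.0078, 0.0419 and -0.003, and control 3 correlated best with another number. The replicate block left 1 member called, Cdk6, with an adjusted p of 0.0363, and 5 in place of 8 members lower at an unadjusted p of 0.05. The number of arrays and signal over background limit what could be called.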

Other observations

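Cyclins and cyclin-dependent kinases outside the lists were read by symbol, a list made after the values were seen. Of 43 such genes 1 passed, Ccng1, an atypical cyclin known as a p53 target, which rose by 1.35 ± 0.20 (SE) on the log2 scale (limma adjusted p = 0.00588). It was at 12.39, 12.55 and 12.53 in controls and at 14.20, 13.59 and 13.73 in mutants. None of the 43 was called lower, their median difference was -0.0002, and 4 did not overlap in each direction (9.30%), a share near the 10.2% lower and 10.9% higher of all transcript clusters, of which 3.26% were called.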
